A study of Mus musculus with 2 samples.

Results

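The cells described here were the fibroblasts of mouse periodontal ligament that carried little Mmp13 and little Pcp4, the type I and III collagen producers left over once the other stromal groups had been set aside. They were chosen by their own counts of a few genes. The rule started from cells with 200 or more genes and no more than 20% of counts from mitochondrial genes. A cell was included when Col1a1, Col1a2 and Col3a1 made up at least 1% of its unique molecular identifiers (UMIs, each 1 counted transcript molecule). The cell also had to fall short of a limit for each other class. These limits were under 0.2% of UMIs from the osteoblast genes Bglap, Bglap2, Ibsp and Sp7, at most 2 UMIs of the endothelial genes Pecam1 and Cdh5, and under 10 UMIs of the mural genes Rgs5, Notch3, Kcnj8, Myh11 and Higd1b. They were also under 1% of UMIs from the neutrophil genes S100a8 and S100a9, under 5 UMIs of Pcp4 and Wif1, and under 0.3% of UMIs from Mmp13, Sfrp4 and Ccn5. This gave 91 of 1760 cells, 13 of 348 control cells and 78 of 1412 cells of the orthodontic tooth movement (OTM) library.

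Both libraries came from male C57BL/6J mice aged 8 weeks, and each pooled tissue of 5 mice. In the OTM group, a mesial force of 10 g had been applied to the left first molar of the upper jaw for 6 days. The control group was the right side, which carried no load. The tissue adhering to tooth roots after extraction, and that remaining in the sockets, was digested with collagenase and then trypsin, so cells of the adjoining bone, gum epithelium and blood could be present. With 1 pooled library per side there is no replicate, no test between conditions was possible, and every difference below is one between these libraries.

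The periodontal ligament is the connective tissue that holds the tooth root in its bony socket. Its fibroblasts make and remodel the collagen fibres that carry chewing load, and the same tissue feeds osteoblasts and cementoblasts on its borders. Under an orthodontic force, fibroblasts on the loaded side are known to alter matrix turnover and the release of signals that control bone-resorbing osteoclasts.

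Fibroblast markers that the rule did not use were found in a larger share of these cells than of neutrophils low in collagen. They did not set these cells apart from the other stromal groups. Dcn, which encodes the collagen-binding proteoglycan decorin, had a UMI in 8 of 13 control cells (61.5%, 95% Clopper-Pearson interval 31.6 to 86.1%) and in 72 of 78 OTM cells (92.3%, 84.0 to 97.1%). Neutrophils, which should lack Dcn, had a UMI in 1 of 36 control cells (2.78%) and in 10 of 153 OTM cells (6.54%), at median depths of 13222 and 6078 UMIs. These neutrophils were chosen to have under 0.1% of UMIs from the collagens. Their low shares of fibroblast markers are therefore partly fixed by that choice. Pdgfra, the receptor used to mark fibroblasts, had a UMI in 5 of 13 control and 56 of 78 OTM cells and in 0 of 36 and 0 of 153 neutrophils, which allows shares of cells with a UMI of up to 8.33% and 1.96% (3 cells). After each cell was thinned to 1500 UMIs, which left out 4 control and 9 OTM cells, Dcn was found in 6 of 9 control and 49 of 69 OTM cells. Pdgfra was then found in 1 of 9 control cells, under the floor of 3 cells, and in 14 of 69 OTM cells. No barcode was shared between the libraries, and none of the cells that Scrublet called as doublets (2 control, 8 OTM) was among these fibroblasts.

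Depth divided the control cells. The control cells had a median of 1967 UMIs (591 to 33251) and the OTM cells 18930 (713 to 58957). Of the 13 control cells, 7 had under 2000 UMIs, and the other 6 had between 12962 and 33251. Those 6 gave 93.3% of the 125040 control UMIs, and the deepest of them gave 26.6%. In the OTM library 66 of 78 cells had at least 5000 UMIs and gave 98.7% of 1440552 UMIs. Values of the control library therefore describe mostly 6 cells, and below, a deep cell is one with at least 5000 UMIs. The plot of depth against collagen share shows the gap.

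**Figure D1:**
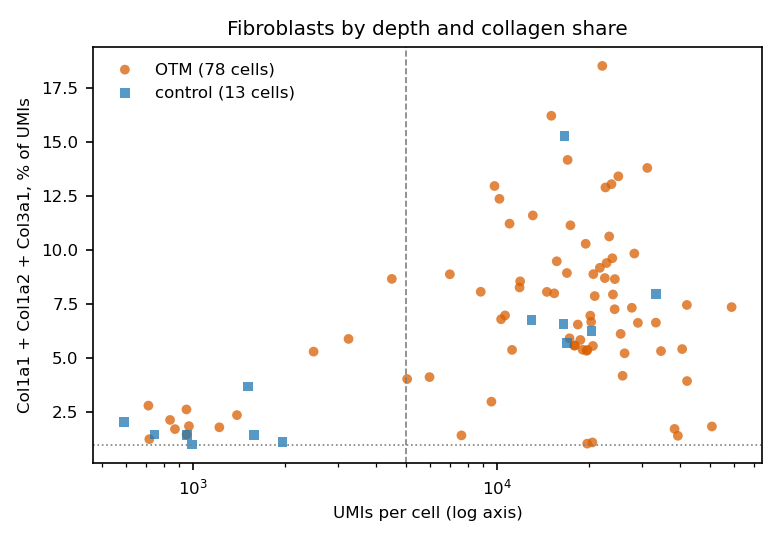
Each point is 1 fibroblast, placed by its UMIs (log axis) and by the percentage of UMIs from Col1a1, Col1a2 and Col3a1, with control cells as squares and OTM cells as circles. The dotted line is the limit of 1% and the dashed line 5000 UMIs: 6 of 13 control cells and 66 of 78 OTM cells lie to the right of the dashed line.

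The limits chose these cells, so the following values are a description. The cell nearest to the collagen limit had 1.01% in the control and 1.05% in the OTM library, and the nearest cells outside had 0.817% and 0.966%. All 43 cells above the Mmp13, Sfrp4 and Ccn5 limit were in the OTM library, the nearest at 0.319%, and the highest cells inside were at 0.127% (control) and 0.297% (OTM). For Pcp4 and Wif1, the highest cells inside held 4 UMIs in both libraries. The 65 control cells outside began at 7 UMIs with a median of 95, and the 219 OTM cells outside began at 5 with a median of 29. Because this limit is in UMIs, a shallow cell passes it more easily. Each of the 6 deep control cells held 2 UMIs or more of these genes, since none was left when fewer than 2 were allowed.

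Markers of other cell types were low in most cells. The erythroid markers, haemoglobins and Alas2, summed to 544 (control) and 21.5 (OTM) in counts-per-million of UMIs (CPM), and in the 7 shallow control cells to 6942 CPM. The 8 neutrophil markers summed to 136 and 20.1 CPM, and in the shallow control cells to 1317 CPM. The predicted genes Gm10800 and Gm10801 together were at 47636 CPM in the shallow control cells and 8.57 CPM in the deep ones, and at 2173 and 10.6 CPM in the shallow and deep OTM cells. The 7 epithelial markers summed to 56.0 and 1246 CPM, and 1 OTM cell held 52.9% of those OTM UMIs. Krt14, the basal keratin, reached 10 UMIs in 2 OTM cells and in 0 control cells. The 6 mural markers summed to 104 and 297 CPM, with Acta2 the main one, and Rgs5, Notch3, Kcnj8, Myh11 and Higd1b were at 0 in the control cells. Osteoblast markers summed to 152 and 242 CPM, osteoclast markers to 72.0 and 56.2 CPM and chondrocyte markers to 39.99 and 66.6 CPM. All 6 endothelial markers were at 0 in the control cells and summed to 8.33 CPM in the OTM cells, and T and NK cell markers summed to 0 and 0.694 CPM. Dspp, which marks odontoblasts of the dental pulp, was at 0 in both libraries. A setting with under 5 UMIs of immune, epithelial and erythroid markers, which kept 8 control and 75 OTM cells, is among the alternatives at the end. The part of the other signals in the results was not tested.

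These fibroblasts made up 3.74% of control cells (Clopper-Pearson interval 2.00 to 6.30%) and 5.52% of OTM cells (4.39 to 6.85%), and the intervals overlapped. Among the 4 stromal groups with collagen, the share was 10.9% (5.95 to 17.96%) and 12.7% (10.2 to 15.6%). The other groups held 67 and 339 cells (Pcp4 and Wif1 positive stromal cells), 0 and 43 cells (fibroblasts rich in Mmp13, Sfrp4 and Ccn5) and 39 and 152 cells (osteoblast lineage). The share moved with the limits: when all cells were first thinned to 1500 UMIs and the UMI limits were kept, 37 of 299 control cells (12.4%) and 233 of 1370 OTM cells (17.0%) met the rule. Deep fibroblasts alone, with at least 5000 UMIs, numbered 6 of 348 control cells and 66 of 1412 OTM cells.

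The most abundant transcripts were those of collagen fibres and were close between the libraries. Col1a1 stood at 32614 CPM (control) and 33230 CPM (OTM). Its log2 ratio of OTM over control was 0.03 (95% interval -0.02 to 0.07). This interval and those of other ratios are conditional binomial ones and cover counting error only, not the spread between cells or mice. Given in the same order, Col1a2 was at 24160 and 22564 CPM, Col3a1 at 19562 and 17512 CPM, and Sparc, a collagen-binding protein, at 23640 and 19613 CPM. The first 3 of these genes belong to the rule. The other 11 of the 15 most abundant genes were Malat1, Gm42418, Fth1, Gpx3, Tpt1, Eef1a1, Ubb, Vim, Lum, Postn and Fos, and each was within 2-fold between the libraries. Levels are UMIs summed over the cells of a library and divided by their total, so they are levels of the sum.

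Across all genes, 4891 had at least 20 UMIs in the library with the higher level and were found in at least 10% and at least 3 of the cells there. Of these, 453 (9.26%) were higher in the OTM library by 2-fold or more and 90 (1.84%) lower by 2-fold or more, with a median log2 ratio of 0.21. Sums under 3 UMIs were set to 3 for this count, which is 24.0 CPM on the control and 2.08 CPM on the OTM side. Ratios given with an interval are those of the sums as counted, without this floor. The 20-UMI minimum is harder to meet in the smaller control library. With a minimum of 3 UMIs expected in each library, 465 of 5867 genes were higher (7.93%) and 386 lower (6.58%). The deepest control cell held 26.6% of all control UMIs and the deepest OTM cell 4.09%. A limit of 25% on the share of the highest cell, used to pick named genes, kept 3 of 85 lower genes and 386 of 440 higher genes (markers and rule genes left out). With fewer than 2 UMIs of Pcp4 and Wif1 allowed, the control sum fell to 7764 UMIs from 6 shallow cells, and 161 genes were higher and 7 lower.

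Inhibitors of matrix proteases and secreted matrix proteins led the genes that were higher in the OTM library. Timp1, an inhibitor of matrix metalloproteinases (ENSMUSG00000001131, X:20870166-20874735 on the plus strand of GRCm38), had 4 control UMIs and 2101 OTM UMIs. These were 31.99 CPM (exact Poisson interval 8.72 to 81.9) and 1458 CPM (1397 to 1522), a log2 ratio of 5.51 (4.15 to 7.39). All 4 control UMIs lay in 1 cell, and 56 of 78 OTM cells had a UMI. Among deep cells, 31 of 66 OTM cells were above each of the 6 control cells. The deep OTM median was 195 CPM (0 to 11352), below the highest deep control cell at 237 CPM. Single OTM cells held 477, 446, 274, 197 and 179 of the 2101 UMIs, so the summed level is not that of a typical cell. In cells thinned to 1500 UMIs, Timp1 was found in 0 of 9 control and 26 of 69 OTM cells, against 1 of 151 OTM neutrophils.

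Ecm1, a secreted glycoprotein of the matrix (ENSMUSG00000028108, 3:95734147-95739569, minus strand), was at 160 and 1150 CPM (log2 ratio 2.85, 2.21 to 3.56). Of the 6 deep control cells 5 held it, at a median of 134 CPM (0 to 414), and 60 of 66 deep OTM cells held it, at a median of 450 CPM (0 to 7706). The ranges overlapped, and 35 OTM cells were above every deep control cell. Serpine2, the protease inhibitor nexin, had 2 control UMIs and 372 OTM UMIs (log2 ratio 4.01, 2.15 to 7.06). With the control sum set to 3, its log2 ratio was 3.43.

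Other genes among those with the highest ratios under the same limit on the highest cell covered several functions. Fmod, the collagen-binding fibromodulin, had 1 control UMI and 219 OTM UMIs in 26 cells (log2 ratio 4.25, 1.76 to 9.56, or 2.66 with the control sum set to 3). Tnc, the matrix glycoprotein tenascin C, had 1 and 186 UMIs, the latter in 24 cells (4.01, 1.52 to 9.32, or 2.43 with that floor). Col4a1, a basement membrane collagen, had 0 and 175 UMIs, so its level was at least 5.06-fold higher against a floor of 3 UMIs in the control sum. Ank, a pyrophosphate exporter that restrains mineral formation, was at 24.0 and 216 CPM (log2 ratio 3.17, 1.61 to 5.46). Tnfaip6, a hyaluronan-binding protein induced by inflammatory signals, was at 64.0 and 358 CPM (log2 ratio 2.49), and Klf2, a transcription factor that responds to fluid flow, at 31.99 and 185 CPM (2.53, 1.16 to 4.42). Gem, Stard13, Crip2, Ctsh and Rpn1 had log2 ratios from 2.33 to 2.64, each on 3 or 4 control UMIs. Ctsh, the lysosomal protease cathepsin H, was the one held by most deep OTM cells, with 50 of 66 above each deep control cell. When every cell was given the same weight, the log2 ratio of Crip2 was -0.51, and that of Stard13 was -1.65 with fewer than 2 UMIs of Pcp4 and Wif1 allowed.

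The matrix genes Thbs4 and Timp3 were over 2-fold lower in the OTM library. Thbs4, which encodes the tendon and ligament glycoprotein thrombospondin 4, had 223 control and 387 OTM UMIs, levels of 1783 and 269 CPM and a log2 ratio of -2.73 (-2.97 to -2.49). In the 6 deep control cells it lay at 632, 946, 1262, 1910, 2908 and 5940 CPM. The 66 deep OTM cells had a median of 85.5 CPM (0 to 4329), and 59 of them were below each of the 6 control cells. Timp3, the matrix-bound metalloproteinase inhibitor, was at 2727 and 866 CPM (log2 ratio -1.66, -1.83 to -1.48). Its 6 deep control cells lay between 1142 and 4907 CPM, and 47 of 66 deep OTM cells were below that range. For both genes the highest control cell held over 25% of the control UMIs (34.5% and 32.3%). Without the deepest control cell the log2 ratios were -3.03 for Thbs4 and -1.54 for Timp3. With fewer than 2 UMIs of Pcp4 and Wif1 allowed, which left no deep control cell, the Timp3 ratio was 0.94 and the control Thbs4 sum was too small to give a ratio.

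Aspn and Omd, small proteoglycans of collagen fibres, were lower by less than 2-fold. Aspn (asporin) was at 4375 and 2308 CPM (log2 ratio -0.92, -1.05 to -0.79), and 49 of 66 deep OTM cells were below the lowest deep control cell at 3547 CPM. With fewer than 2 UMIs of Pcp4 and Wif1 allowed, which left no deep control cell, its log2 ratio turned to 1.61. Omd (osteomodulin) was at 1719 and 954 CPM (-0.85, -1.06 to -0.64). Postn, the force-responsive matrix protein periostin, was at 4551 and 3044 CPM (-0.58, -0.71 to -0.45), and 42 of 66 deep OTM cells lay below the lowest deep control cell at 3398 CPM. The plot of single deep cells shows that OTM cells reached down to 0 for Thbs4, Timp3, Aspn and Postn, while no deep control cell did.

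**Figure D2:**
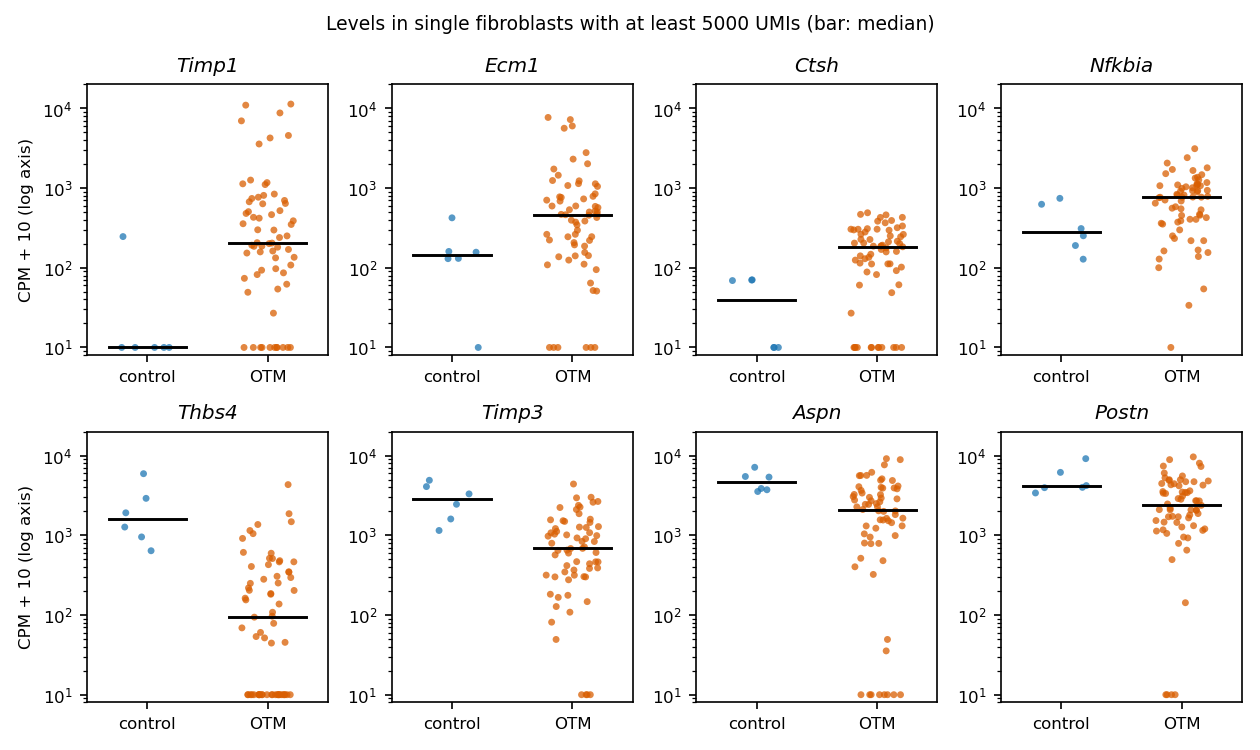
Each point is 1 fibroblast with at least 5000 UMIs (6 control, 66 OTM), and the vertical axis is its level in CPM plus 10 on a log axis; bars are medians. OTM cells reach up to 11352 CPM for Timp1 and 7706 CPM for Ecm1, and Thbs4, Timp3, Aspn and Postn are at 632 CPM or more in all 6 control cells. The ranges of the sides overlap for every gene shown.

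Among the genes with the lowest ratios and no control cell above 25%, Cdk8, Apoe and Zfhx3 reached 2-fold. Cdk8, a kinase of the transcriptional Mediator complex, was at 696 and 241 CPM (log2 ratio -1.53, -1.87 to -1.17). It lay between 331 and 1242 CPM in the 6 deep control cells, and 56 of 66 deep OTM cells were below that range. Apoe, a lipid carrier, was at 392 and 193 CPM (-1.02, -1.46 to -0.55). The log2 ratio of Zfhx3 was -1.02, but 0.17 in deep cells alone. Selenop, Camk1d, Pam, Eif3j1, Mme, Ndufs7, Gng2, Mbnl1 and the nuclear RNA Malat1 had log2 ratios from -0.92 to -0.67. The ratio of Malat1 turned to 4.51 with fewer than 2 UMIs of Pcp4 and Wif1 allowed and to 0.56 when every cell had the same weight.

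The same genes were read in the larger stromal groups of both libraries. Timp1 had log2 ratios of 2.95 (2.77 to 3.14) in Pcp4 and Wif1 positive stromal cells and 3.20 in osteoblast lineage cells, and Ecm1 4.38 and 3.56. Thbs4 was lower in both (-1.57 and -1.46), as was Cdk8 (-1.27 and -1.60). Timp3 stood at 905 and 913 CPM in Pcp4 and Wif1 positive cells (log2 ratio 0.01, -0.07 to 0.10) and at 885 and 962 CPM in osteoblast lineage cells. Tnc had a log2 ratio of -0.82 (-0.94 to -0.69) and Klf2 of -1.53 (-1.64 to -1.42) in Pcp4 and Wif1 positive cells, opposite in sign to the fibroblasts. In osteoblast lineage cells Klf2 was also lower (-0.45), while Tnc was higher (1.55, 1.21 to 1.91), and the Tnc ratio of the fibroblasts rests on 1 control UMI. Gem and Tnfaip6 stood at -0.19 and 0.05 in Pcp4 and Wif1 positive cells and at 0.24 and 0.997 in osteoblast lineage cells. Whether these ratios differ between the groups could not be tested with 1 library per side.

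**Figure D3:**
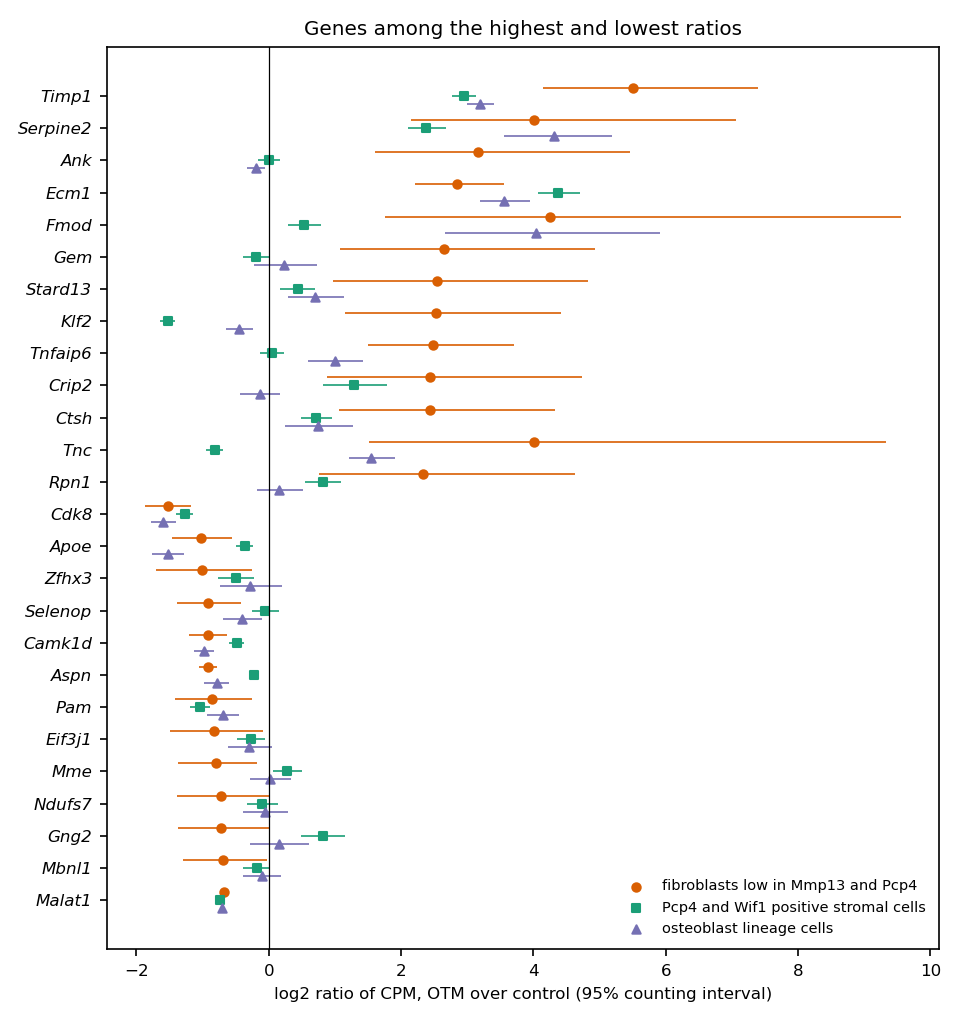
Points are log2 ratios of CPM, OTM over control, for genes among those with the highest and lowest ratios, with 95% counting intervals as lines; circles are the fibroblasts low in Mmp13 and Pcp4, squares the Pcp4 and Wif1 positive cells, triangles the osteoblast lineage cells. Col4a1 is left out because its control sum was 0. Timp1, Serpine2 and Ecm1 lie right of 0 in all 3 groups, and Tnc and Klf2 lie on opposite sides of 0 in the fibroblasts and the Pcp4 and Wif1 positive cells.

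Lists of genes with a shared role are given by how many eligible members were at least 2-fold apart and by their median log2 ratio, beside 9.26% higher, 1.84% lower and a median of 0.21 over all eligible genes. The 20-UMI minimum is harder to meet on the control side, so lower genes enter these counts less easily. With 3 UMIs expected in each library, 7.93% of genes were higher and 6.58% lower (median 0.10). Lower genes then numbered 1 of 12 for YAP targets and 1 of 11 for interferon-stimulated and MHC class I genes. They also rose in number for tendon genes and the TGF-beta family, as given below, and in no other list. Of 21 fibrillar and elastic matrix genes, 7 were higher and 0 lower, with a median of 0.37. Col6a1 and Col6a3, chains of the beaded filaments around cells, were at 472 and 948 CPM (1.01, 0.63 to 1.41) and at 296 and 665 CPM (1.17, 0.69 to 1.68). Fn1, the adhesive glycoprotein fibronectin, was at 328 and 684 CPM (1.06, 0.61 to 1.55), although its log2 ratio was -0.35 after thinning to 1500 UMIs. Col5a3, Fbn1 and Fbln1 had log2 ratios of 2.03, 1.51 and 1.36. Fbln2 had 0 control UMIs and 79 OTM UMIs, of which 58.2% lay in 1 cell.

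Among 9 small leucine-rich proteoglycans, Fmod alone was 2-fold higher and 0 were lower, and the median was 0.02. Lum, Bgn and Dcn, abundant regulators of collagen fibre assembly, had log2 ratios between 0.25 and 0.31. Of 10 tendon and ligament genes, 3 were higher (Tnc, Fmod and Tnmd) and 1 lower (Thbs4), with a median of -0.14. With 3 UMIs expected in each library, 3 of 13 were higher and 2 lower (median -0.26). Tnmd, the tendon membrane protein tenomodulin, was at 39.99 and 101 CPM (1.33, 0.08 to 2.98), but all 5 control UMIs lay in 1 cell. Scx, the transcription factor of tendon cells, had 13 and 66 UMIs (104 and 45.8 CPM), under the minimum for the count.

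Markers of adventitial and progenitor fibroblasts were uneven, and some were at or near 0. Pi16, Dpp4, Clec3b and Cfd, which mark adventitial fibroblasts of other tissues, had 0 UMIs in both libraries. Gsn and Gas1 of the same list were at 344 and 307 CPM and at 192 and 226 CPM. Of 11 eligible adventitial genes 3 were higher and 0 lower (median 0.23): Ebf1, a transcription factor (72.0 and 192 CPM), Igfbp6 (0 and 78 UMIs) and Ly6a (1 and 137 UMIs). Of 6 eligible progenitor markers, Ly6a was higher and 0 were lower (median 0.47). Gli1 and Axin2, used to trace ligament stem cells, had 0 and 1 UMIs in the control and 4 and 15 in the OTM library. Twist1 and Prrx1 of the progenitor list were at 264 and 297 CPM and at 152 and 241 CPM. Of 17 collagen folding and cross-linking genes, 1 was higher and 0 lower (median 0.27): Bmp1, which trims procollagen ends (72.0 and 196 CPM, log2 ratio 1.45). Serpinh1, the collagen chaperone, was at 2295 and 2531 CPM.

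In the list of matrix remodelling genes, 6 of 21 were higher and 1, Timp3, was lower (median 0.00). The higher ones included Timp1, Serpine2, Plaur, Adam12 and Mmp13, of which Mmp13 belongs to the rule. Plaur, the receptor that focuses plasminogen activation on the cell surface, was at 80.0 and 239 CPM (1.58, 0.68 to 2.65). Mmp2 and Mmp14, collagenolytic enzymes, were at 1136 and 986 CPM and at 992 and 1279 CPM, and Ctsb, a lysosomal protease, at 1408 and 1084 CPM.

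Signals to osteoclasts had the highest median of the 24 lists, 1.55 over 6 genes, of which 4 were higher and 0 lower. That median was 0.49 when every cell had the same weight and 0.72 without the limit on Mmp13, Sfrp4 and Ccn5. Few cells carried these signals. Ptgs2, the cyclooxygenase that makes prostaglandins, had 1 control and 303 OTM UMIs, found in 24 of 78 OTM cells (log2 ratio 4.72, 2.23 to 10.03). With the control sum set to 3, as in the list median, its log2 ratio was 3.13. Ccl2, a monocyte attractant, was at 72.0 and 283 CPM (1.98, 1.04 to 3.12), with all 9 control UMIs in 1 cell and OTM UMIs in 31 cells. Il11, a cytokine of the interleukin 6 family, was found in 8 OTM cells, 1 of which held 61.0% of its UMIs. Tnfrsf11b, the RANKL decoy receptor osteoprotegerin, had 2 and 102 UMIs, the latter in 14 cells. Tnfsf11, which encodes RANKL, had 0 control UMIs and 24 OTM UMIs in 10 cells. Ptgs2 was also found in 54 of 153 OTM neutrophils (35.3%), above the share of these fibroblasts (30.8%). With cells thinned to equal depth, it was found in 32 of 151 OTM neutrophils and in 7 of 69 OTM fibroblasts. Neutrophils therefore cannot serve as cells that lack Ptgs2, and their share cannot show whether the fibroblasts express it. Expression of Ptgs2 by these fibroblasts was not tested otherwise, and its detection is not read as expression here.

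Of 5 chemokines and colony-stimulating factors, Ccl2 and Cxcl10 were higher and 0 lower (median 0.55). Cxcl10 had 0 control UMIs and 160 OTM UMIs, with 51.9% in 1 cell. Cxcl1 was at 312 and 230 CPM and Cxcl2, like it a ligand that draws neutrophils, at 128 and 187 CPM. Of 4 Wnt genes, Wnt5a, a non-canonical ligand, was higher at 56.0 and 226 CPM (2.02, 0.96 to 3.34), 0 were lower, and the median was 0.00. Dkk3 and Sfrp1 were at 224 and 215 CPM and at 168 and 142 CPM.

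Ligands and antagonists of the TGF-beta family lay on both sides: 4 of 15 genes were higher and 2 lower (median 0.58). With 3 UMIs expected in each library, 4 of 22 were higher and 4 lower (median 0.08). Inhba, the activin A subunit, was at 48.0 and 641 CPM (3.74, 2.61 to 5.19), and 1 OTM cell held 39.3% of its UMIs. Bmp2 had 3 and 263 UMIs, the latter in 27 cells (2.93, 1.36 to 5.21), and Bmp6 and Bambi were the other higher genes. Fst, the activin antagonist follistatin, was at 184 and 38.9 CPM (-2.24, -2.97 to -1.47), but 87.0% of its control UMIs lay in 1 cell. Smad7, a feedback inhibitor, was at 232 and 99.96 CPM (-1.21, -1.80 to -0.59), with 58.6% in 1 control cell. Id3, a target of BMP signals, and the ligand Tgfb1 had log2 ratios of 0.41 and 0.31.

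Of 8 genes of the IGF system, Igfbp3 and Igfbp6 were higher and 0 lower (median 0.66). Igfbp3 had 1 and 179 UMIs (3.96, 1.46 to 9.27). Igfbp5, Igfbp7 and Igfbp4, the most abundant binding proteins, were at 1144 and 1486, 1344 and 1063, and 328 and 622 CPM. Of 10 other growth factors and receptors, Egfr (31.99 and 80.5 CPM) and Vegfa (39.99 and 83.3 CPM) were higher, and Fgfr2, a fibroblast growth factor receptor, was lower at 488 and 184 CPM (-1.41, -1.81 to -0.98), with a list median of 0.21. Fgfr2 was held by all 6 deep control cells at 49.0 to 1212 CPM and by 60 of 66 deep OTM cells at up to 689 CPM, so the ranges overlapped.

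Contractile genes differed little: of 6, Acta2 was higher (104 and 272 CPM, 1.39, 0.60 to 2.31), 0 were lower, and the median was 0.10. A single cell gave 92.3% of the control Acta2 UMIs and another 49.5% of the OTM ones. Of 10 YAP targets and mechanosensing genes, Ccn2, Axl and Crim1 were higher and 0 lower (median 0.32). Ccn2, a matricellular protein and classic YAP target, was at 104 and 390 CPM (1.91, 1.12 to 2.83), whereas its relative Ccn1 was at 952 and 576 CPM (-0.72). The force-gated channel Piezo1 was at 72.0 and 103 CPM.

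Cell cycle transcripts were concentrated in few OTM cells. Of 9 genes 4 were higher and 0 lower (median 0.62): Stmn1, Hmgb2, Top2a and Ube2c. Over the 9 mitotic genes Mki67, Top2a, Ccnb1, Ccnb2, Cdk1, Birc5, Cenpf, Tpx2 and Ube2c, cells with at least 5 UMIs numbered 8 of 78 in the OTM library and 0 of 13 in the control library, and 1 OTM cell held 34.8% of the 494 OTM UMIs. Mki67, the proliferation antigen, had 0 control UMIs and 53 OTM UMIs. The median depth of the control cells was 1967 UMIs against 18930, and its part in this count was not tested.

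Few metabolic and secretory genes were 2-fold apart. Of 14 glycolysis and hypoxia genes, Gapdh (216 and 607 CPM, log2 ratio 1.49, 0.94 to 2.10) and Vegfa were higher, and 0 were lower (median 0.54). Pkm and Ldha were at 224 and 360 CPM and at 192 and 336 CPM. Of 17 genes of the secretory pathway and unfolded protein response, Kdelr3 was higher (64.0 and 151 CPM) and 0 lower (median 0.33), and the chaperones Hspa5 and Hsp90b1 were at 776 and 918 CPM and at 488 and 777 CPM.

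Immediate early and heat shock genes, which tissue dissociation is known to raise, were abundant on both sides. Of 24 genes, Klf2 was higher and Hspa1b lower (2015 and 912 CPM, -1.14, -1.34 to -0.94), with a median of 0.13. Fos, Hspa1a and Jun were at 4263 and 3037, 2679 and 1937, and 1440 and 1474 CPM. The highest control cell gave 57.9% of the Hspa1b UMIs, and for Fos it gave 54.4%. Of 9 NF-kB feedback genes, Nfkbia, Nfkb1 and Tnfaip6 were higher and 0 lower (median 0.41). Nfkbia, the inhibitor that NF-kB itself induces, was at 344 and 727 CPM (1.08, 0.64 to 1.55), and 35 of 66 deep OTM cells were above each deep control cell.

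Of 9 interferon-stimulated and MHC class I genes, 0 were 2-fold apart in either direction (median 0.14). Ifitm3 came closest, at 480 and 951 CPM, and Ifitm2 and B2m were at 624 and 689 CPM and at 544 and 514 CPM. Of 4 complement genes, 1 was higher and 0 lower (median -0.20). Serping1, C1s1 and C1ra were at 448 and 439, 264 and 158, and 208 and 162 CPM. Of 9 cytokine receptors, Il1rl1, Osmr and Il1r1 were higher and 0 lower (median 0.36). Il1rl1, the interleukin 33 receptor ST2, had 0 control UMIs and 313 OTM UMIs, 50.2% of them in 1 cell, and its log2 ratio (control sum set to 3) was 0.49 without cluster 3. Osmr, the oncostatin M receptor, was at 56.0 and 127 CPM (1.18, 0.11 to 2.52).

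Of 13 mineralization genes, Spp1, Ank and Enpp1 were higher and 0 lower (median 0.28). Spp1, the bone matrix protein osteopontin, had 4 and 737 UMIs (31.99 and 512 CPM), and 1 of the 22 OTM cells that held it gave 52.2%. Enpp1, which makes pyrophosphate, had 2 and 98 UMIs (2.09, 0.20 to 5.15). Runx2, the master factor of osteoblasts, was at 904 and 460 CPM (-0.98, -1.27 to -0.67), and Alpl, the phosphatase of mineral formation, at 568 and 342 CPM (-0.73, -1.09 to -0.35). All 6 deep control cells held Runx2, at 355 to 1466 CPM, and 30 of 66 deep OTM cells lay below that range. Mgp was at 472 and 930 CPM, with 56.1% of the OTM UMIs in 1 cell. Omd, given above, also belongs to this list.

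**Figure D4:**
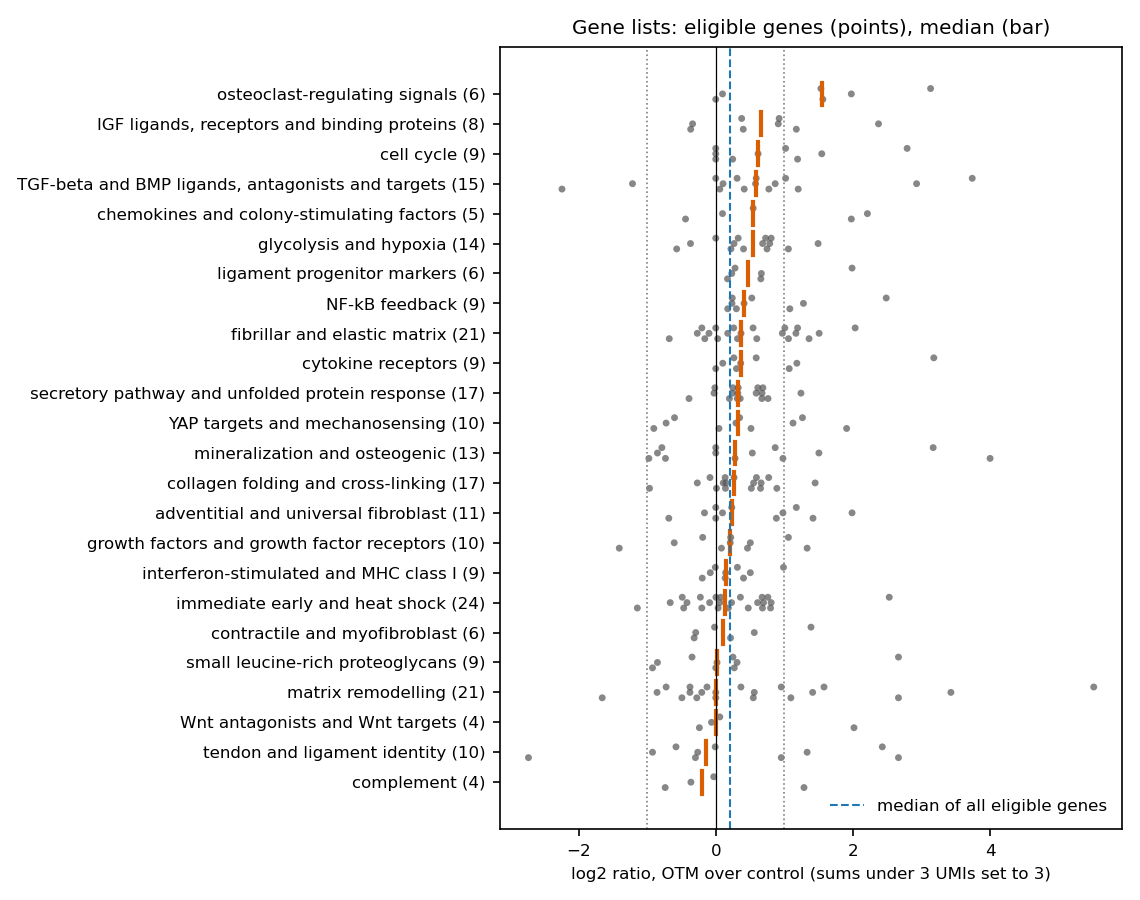
Each point is 1 eligible gene of a list at its log2 ratio of OTM over control, with sums under 3 UMIs set to 3, and each bar is the median of the list (number of genes in brackets). The dashed line is the median of all eligible genes, 0.21, and dotted lines mark 2-fold: the osteoclast-regulating signals lie farthest right at 1.55, and complement and tendon and ligament genes lie left of 0.

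The fibroblasts fell into 4 clusters by their own transcripts, which describe their variation and are no cell types. Cluster 1 held 36 cells (3 control), cluster 2 held 28 (7 control), cluster 3 held 16 (1 control) and cluster 4 held 11 (2 control). Cluster 1 was led by the proliferation-associated genes Stmn1, Hmgb2, Smc4 and Hmgn2, with Gsto1, Ccl2, Cited2, Cebpd, Egfr and Selenoh. Its summed cell cycle level was 1315 CPM, against 239 to 277 CPM in the others. Tnmd was at 144 CPM in cluster 1 and at 9.56 to 65.4 CPM elsewhere, and Krt14 at 1244 CPM in cluster 1, in 5 of its 36 cells. Of the 1046 Krt14 UMIs of the OTM library, 538 lay in 1 cell, and only 2 cells reached 10 UMIs.

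Cluster 2, the most shallow but for cluster 4 with a median of 8598 UMIs, was led by Ankrd44, Serpine2, Srgap3, Lars2, Nlgn1, Ebf1, Il31ra, Pdgfd, Mllt3 and Npas2. Serpine2 was at 610 CPM there and at 161 CPM in the other fibroblasts. Runx2 was at 887 CPM in cluster 2 and at 361 to 438 CPM elsewhere, and Igfbp7 at 2325 CPM against 660 to 935 CPM. Single cells gave 59.1% of the Igfbp7 UMIs of cluster 2 and 66.8% of those of Mgp, the inhibitor of soft tissue calcification. Mgp stood at 4163 CPM over the cluster and at 1492 CPM without its highest cell, and was found in 12 of 28 cells. Cluster 4, with a median of 6985 UMIs, was led by Timp3 (2792 CPM against 887 in the others), Fat3, Ust, Alpl, Bmpr2, Lims1, Mef2a, Asap1 and Dleu2. Thbs4 was at 899 CPM in cluster 4 and at 234 CPM in cluster 1. A deep control cell gave 16506 of the 104566 UMIs of cluster 4, and it held 48 Thbs4 and 81 Timp3 UMIs.

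Cluster 3 held the highest levels of Timp1 and Ecm1. Its leading genes were Ecm1 (2785 CPM against 574 in the other fibroblasts), Nupr1 (4180 against 942), Timp1 (3367 against 758), Crip1, Fxyd5, Crip2, Fn1, Lgals3, Plaur and Cd9. Inhba, found in 11 of its 16 cells, was at 1543 CPM there and at 22.2 to 446 CPM elsewhere, and S100a4, a calcium-binding protein, at 1693 CPM against 118 to 328. In cluster 3 the highest cell for each gene gave 66.9% of the Inhba and 58.1% of the S100a4 UMIs, and the levels without it were 598 and 830 CPM. Without cluster 3, 417 genes reached 2-fold higher and 90 reached 2-fold lower. The log2 ratio of Ecm1 was then 1.89 and that of Col6a3 0.67, below 2-fold, as were Col6a1 (0.64), Fn1 (0.48), Nfkbia (0.92), Il1rl1 (0.49), Apoe (-0.94) and the rule gene Mmp13 (0.98). Aspn, Postn, Lum and Col1a1 differed by less than 2-fold among the 4 clusters.

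**Figure D5:**
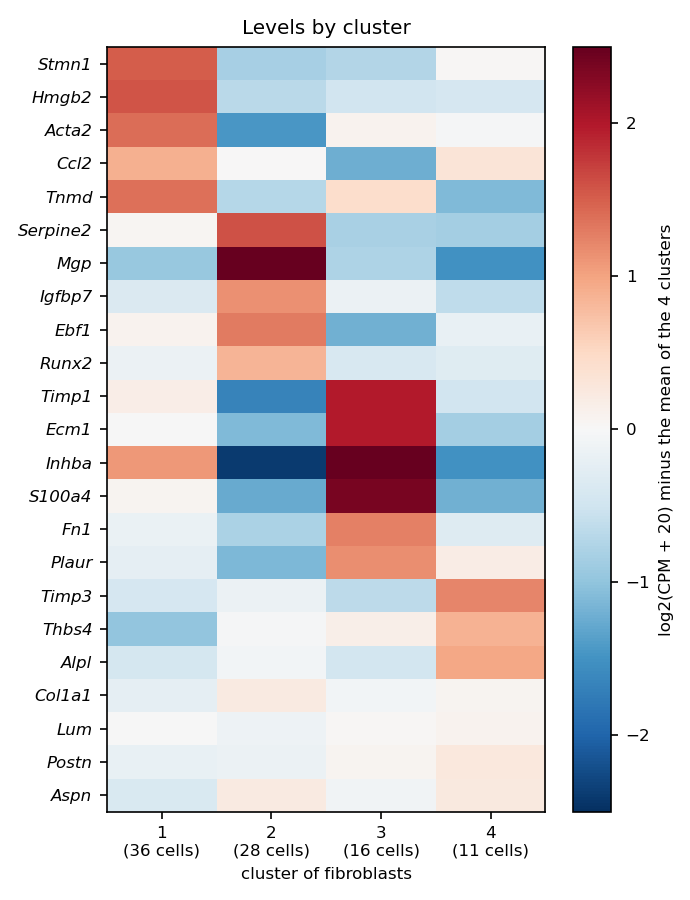
Colours give log2(CPM + 20) of each gene in each cluster minus its mean over the 4 clusters, with red above and blue below the mean. Mgp stands out in cluster 2, where 1 cell gave 66.8% of its UMIs, and Timp1, Ecm1, Inhba and S100a4 in cluster 3, where 1 cell gave 66.9% of the Inhba UMIs. Col1a1, Lum, Postn and Aspn vary little.

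The other stromal groups were set apart by rules on gene levels, so the following differences are a description. Against Pcp4 and Wif1 positive cells, 7.84% of 5844 genes in the control and 3.23% of 12692 in the OTM library were higher in the fibroblasts by 2-fold or more, and 9.69% and 4.95% were lower. The genes that were lower in the fibroblasts of both libraries were led by Kcnip4, Sfrp2, Nts, Angpt4, Pmch and Mfap4. Sfrp2, a secreted Wnt modulator, was at 120 and 98.6 CPM in the fibroblasts and at 2431 and 1073 CPM in that group. The higher ones included Aspn (4375 and 2308 against 1145 and 980 CPM), the neurotrophin receptor Ntrk2 (80.0 and 94.4 against 11.8 and 40.03 CPM), Eya1, Map3k5, Cryab and Dner, and all but Aspn had 8 to 24 control UMIs. Against osteoblast lineage cells, 12.3% (control) and 6.3% (OTM) of genes were higher and 8.61% and 5.8% lower. Aspn was again higher (451 and 261 CPM there), as were Igfbp5 (1144 and 1486 against 212 and 237 CPM), Ntrk2, Ntrk3, Edil3 and Ccl2. Spp1, Smpd3, Col11a2 and Ifitm5, genes of bone-forming cells, were lower.

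Against the fibroblasts rich in Mmp13, Sfrp4 and Ccn5, which were found only among OTM cells, the comparison was within the OTM library, where 9.31% of 12265 genes were higher in the fibroblasts low in Mmp13 and 5.76% lower. Spp1 was at 512 CPM in the fibroblasts low in Mmp13 and at 8586 CPM in the rich group, Pdzrn4 at 57.6 and 702 CPM, and Saa3, an acute-phase protein, at 11.8 and 256 CPM. Aqp5, Ccl20, Rln1, Gzmb and Gdf15 were likewise lower. The protocadherin Pcdh9 (77.7 against 4.95 CPM) and Dusp8 led the genes that were higher than in the rich group. Thbs4 was at 269 CPM in the low group and 38.2 CPM in the rich group, and Omd at 954 and 318 CPM. Timp1 was at 1458 and 3168 CPM.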

How the data were processed

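The authors deposited raw UMI counts for each gene and barcode, with no normalization. The submitters' processing notes name Cell Ranger 7.0.1, Seurat and the builds GRCm38 and mm10; any cell filter by the authors is not given in the sources used here. Libraries were made with the 10x 3' v3.1 kit, per the labels' protocols. The matrices held 369 and 1539 barcodes with 5723299 and 36010801 counts.

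Counts were summed over the fibroblasts of each library and divided by that sum (CPM). Sums have exact Poisson intervals, shares exact Clopper-Pearson intervals and ratios conditional binomial intervals, all covering counting error only. A gene called higher or lower was at least 2-fold apart, with sums under 3 UMIs set to 3, or the ratio set to 0 (log2) where that floor exceeded the level in the other library. With 1 library per side no test was made. The ratio code was tested on simulated data.

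Clusters were found with scanpy 1.11.5 (1000 variable genes, 10 components, 10 neighbours, Leiden resolution 0.5, seed 0). Doublets were called with Scrublet and kept, since none was a member. Neutrophils with at least 5% of UMIs from S100a8 and S100a9 and under 0.1% from the collagens served as cells that should lack fibroblast transcripts. Gene positions are those of GENCODE M21.

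The genes named were the 15 of highest and the 15 of lowest ratio in which no cell gave 25% of the UMIs of the higher library, the 15 most abundant, the first 10 of each cluster, and from each list the 3 most abundant and those at least 2-fold apart. Against other stromal groups they came from the 10 highest and 10 lowest ratios of equal sign in both libraries. Mitochondrial, ribosomal, haemoglobin, Gm, Rik and Y-linked genes, rule genes and markers of other types were left out of the ratio lists. A limit of 50% for the highest cell in cluster genes, and of 20 OTM and 5 control UMIs in comparisons between groups, was set after seeing the data. Some genes that met this rule are not reported here. Genes outside this rule, such as Omd, Scx, Pi16, Tnfsf11 and S100a4, were chosen after their values were seen. The members and lists were chosen with earlier results of these data known.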

Additional observations from a re-analysis of the deposited data

How the results depend on the processing

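Medians below are log2 ratios of the gene lists. With Pcp4 and Wif1 under 2 UMIs, the shares of cells were 1.72% (control) and 3.12% (OTM), 161 genes were higher and 7 lower, and the medians were 1.29 for small leucine-rich proteoglycans, 0.86 for immediate early genes and 0 for the IGF system, cell cycle and osteoclast signals. With these genes under 0.025% of UMIs, osteoclast signals stood at 0.86. Thinning to 1500 UMIs gave shares of 12.4% and 17.0%, 78 genes higher, 8 lower and a complement median of 0.52. Fibroblasts with 5000 UMIs or more made up 1.72% of control cells (6 of 348) and numbered 66 of 1412 OTM cells. With Mmp13, Sfrp4 and Ccn5 under 0.1%, the OTM share was 3.12%, adventitial genes stood at 1.05 and mineralization genes at 0.97. Without that limit these values were 8.57% for the OTM share, 0.59 for matrix remodelling and 0.72 for osteoclast signals.

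When every cell had the same weight, 1481 genes were higher. The medians were then 0.72 (small proteoglycans), 1.12 (adventitial), 1.23 (progenitor), 0.71 (remodelling), 0.49 (osteoclast signals), 1.33 (chemokines), 0.96 (Wnt), 0.93 (contractile), 1.26 (immediate early), 1.51 (NF-kB), 0.78 (complement), 1.06 (mineralization) and 1.14 (cytokine receptors). At a minimum of 50 UMIs, 20 genes were lower, and medians were 1.08 (adventitial), 1.98 (chemokines), 2.02 (Wnt) and 0.63 (complement). With 3 UMIs expected in each library, 386 genes were lower. Chemokines stood at 1.26 with 3% or more collagen, at 1.80 with under 5 UMIs of immune, epithelial and erythroid markers, and at 1.76 without the deepest control cell. In the last 2 settings growth factors stood at 0.83 and 0.85, and cell cycle genes at 0 in the former.

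Among named genes with a log2 ratio of 0.5 or more in size, the ratio turned for Stard13 (-1.65), Timp3 (0.94), Aspn (1.61) and Malat1 (4.51) with Pcp4 and Wif1 under 2 UMIs, for Crip2 (-0.51) and Malat1 (0.56) with equal weights, for Zfhx3 with 3% or more collagen (0.11) or 5000 UMIs or more (0.17), and for Fn1 after thinning (-0.35). Of 35 named genes past 2-fold, 30 changed sign in no alternative and 3 stayed past 2-fold in all 17 alternatives. A ratio that the floor set to 0 was counted as no change of sign. That was so for Serpine2, Ank, Fmod and others with Pcp4 and Wif1 under 2 UMIs, so the 30 include genes without a ratio there. The causes were not tested. The settings without the deepest control cell, without cluster 3 and with 0.025% were chosen after seeing the data. No paired analysis was possible because each side was 1 pooled library. Depth limits the control side most: 6 cells gave 93.3% of its UMIs, and the floor of 3 UMIs was 24.0 CPM there against 2.08 CPM in the OTM library.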
